A study of Rattus norvegicus with 9 samples.

Results

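The genes described here are 44 genes of mitosis: the cyclins and the kinase that start it, the spindle checkpoint, the kinetochore, the spindle motors and the machinery of cytokinesis. They were taken by symbol from a named list and not by their measured values, though earlier results of these data were known when the list was made. All 44 were found among the 17602 genes of the deposited table, and all 44 were above 0 TPM (a transcript level scaled by length and to a fixed total per library) in all 9 libraries. They were therefore all among the 16512 genes tested, which were those above 0 TPM in at least 3 libraries.

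The rats were wild-type males of the Lewis strain, 10 to 12 weeks old, and each of the 3 groups had 3 libraries, titled as biological replicates. The intact group was synovium, the lining of the joint, from around the medial meniscus of knees without surgery. In the sham group the same tissue was taken 1 week after a sham operation. The pMx group was the tissue regrowing 1 week after part of that meniscus had been removed (partial medial meniscectomy, pMx), cut away from the synovium around it. The pMx and sham groups thus differed in both the operation and the tissue taken, and the effects of these cannot be told apart. How many animals made up a library is not given in the sources used here, so the p-values measure only the spread between these samples. The RNA integrity that the study lists for its samples was lowest in the intact and highest in the pMx group without overlap, so it moved in the same order as the genes described here, and its part in the results was not tested.

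Most of these genes are transcribed late in the cell cycle and are silent or low in resting cells. Their products condense the chromosomes, attach them to spindle microtubules through the kinetochore, hold the cell until every chromosome is attached, and then separate the chromosomes and divide the cytoplasm. The synovium of an adult joint is known as a tissue in which few cells divide. In bulk tissue, a larger share of dividing cells and more mitotic RNA per dividing cell cannot be told apart.

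The level of the 44 genes rose from the intact to the sham to the pMx group. With n = 3 libraries a group, their summed level (mean ± SD) was 112 ± 5.91 TPM in the intact, 286 ± 71.2 TPM in the sham and 860.3 ± 51.8 TPM in the pMx group. The sums of the 3 groups did not overlap, and the pMx sum was 3.01 times the sham sum and 7.70 times the intact sum. The genes were tested in limma on log2(TPM + 1) with Benjamini-Hochberg adjustment over all 16512 genes, and a gene is said to rise or fall at an adjusted p below 0.05. Differentially expressed genes (DEGs) also had an absolute log2 fold change above 1.

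In pMx versus sham, 44 of the 44 genes rose and 0 fell, where 17.7% of all tested genes rose and 18.9% fell. At an unadjusted p below 0.05, 0 of the 44 were lower, against 23.5% of all genes. The DEG thresholds were passed by 40 of the 44, against 3.36% of all genes in that direction. In all 44 genes the lowest pMx library was above the highest sham library, which held for 27.0% of all genes. Their median log2 fold change was 1.49, beside -0.01 over all tested genes, and the highest adjusted p was 0.00564, for Ndc80. The changes ran from 0.68 for Smc2 to 1.81 for Top2a. As ratios of mean TPM, the pMx level was 1.66 to 4.87 times the sham level, with a median of 3.08.

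In sham versus intact, 39 of the 44 genes rose and 0 fell, where 6.73% of all tested genes rose and 5.97% fell. At an unadjusted p below 0.05, 0 of the 44 were lower here too, against 15.0% of all genes. The DEG thresholds were passed by 22 genes, against 1.42% of all genes in that direction. The groups did not overlap in 40 genes, against 14.2% of all genes. The median log2 fold change was 1.00, beside -0.02 over all tested genes, with a range from 0.25 for Smc2 to 1.76 for Spc24. The genes that did not pass the test were Incenp, Ndc80, Tpx2, Smc2 and Fbxo5. Of these, Fbxo5 alone had sham and intact libraries that did not overlap. The count of 39 was 26 without sham replicate 1, and 21 at an adjusted p below 0.01.

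In pMx versus intact, 44 genes rose, against 23.4% of all tested genes, and 43 passed the DEG thresholds, against 6.40%. The median log2 fold change was 2.48, beside -0.03 over all genes. The largest ratio of mean TPM was that of Mybl2, at 20.2, and the smallest that of Smc2, at 2.02. In 40 genes the pMx mean was at least 4 times the intact mean. The 3 comparisons share libraries, so their values are given side by side and are not independent of each other.

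**Figure D1:**
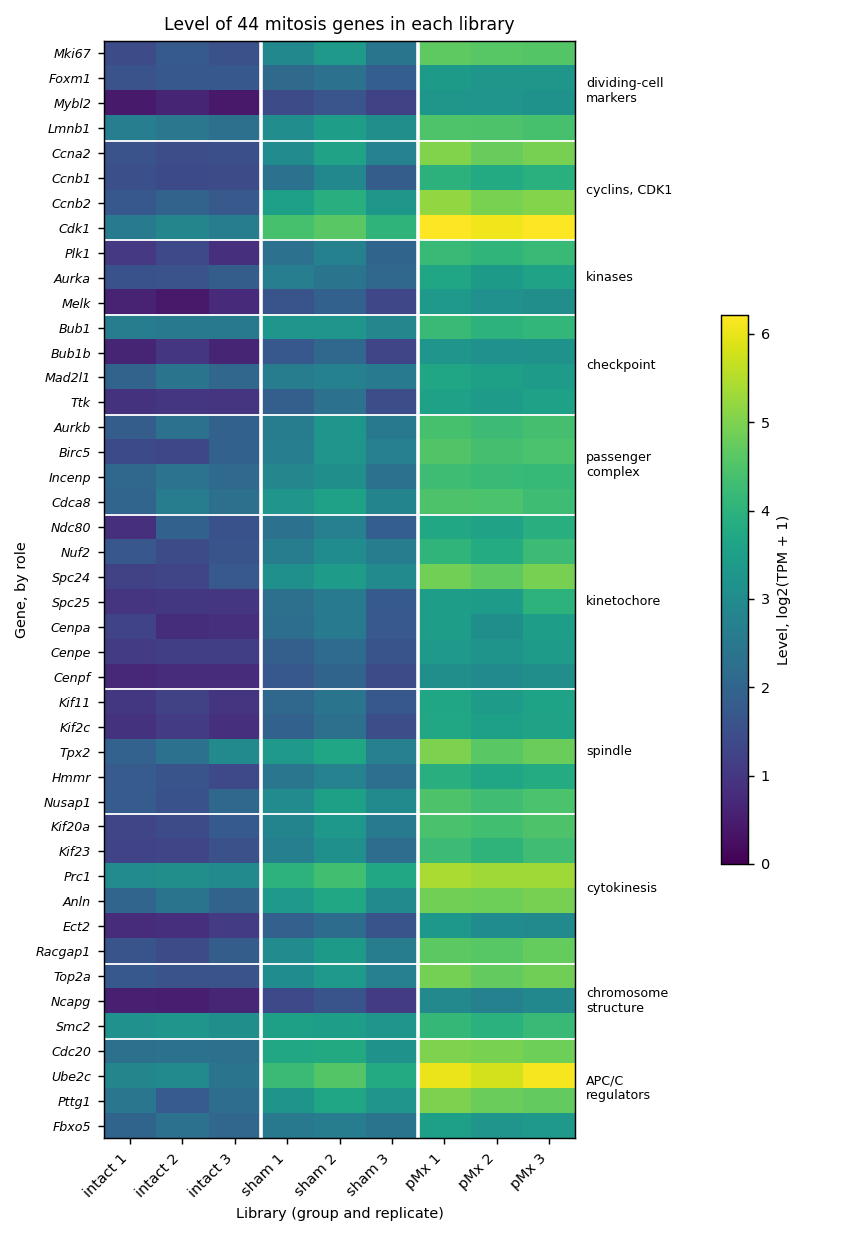
Level of each of the 44 genes (rows, ordered by role) in each of the 9 libraries (columns), as log2(TPM + 1) on a colour scale. The 3 pMx columns are the brightest in every row, and the sham columns lie between them and the intact columns for most genes, with sham replicate 2 highest in 42 genes.

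Promoter sequences were examined because many genes transcribed late in the cell cycle are known to share 2 promoter elements. The first is the cell cycle genes homology region (CHR), with the letters TTTGAA or less often TTCGAA, through which the DREAM complex and the complex of MYBL2 and FOXM1 bind. The second is the CCAAT box, bound by the factor NF-Y. Promoters of 37 of the 44 genes were in the RefSeq table of the rat assembly GRCr8, each running from 250 bases before the annotated start to 50 bases after it. The genes with no entry were Foxm1, Ccna2, Aurkb, Incenp, Tpx2, Racgap1 and Ube2c. Shown are 6 chosen genes: the mitotic kinase Cdk1, cyclin B2, the Ki-67 gene, topoisomerase II alpha, the anaphase activator Cdc20 and the kinetochore gene Spc25. The 160 bases before the start are printed for each. They are written 5′ to 3′ along the gene, and capitals mark the CHR in either spelling and the CCAAT box, or their reverse complements.
Cdk1 (chr20:19265133-19265292, plus strand): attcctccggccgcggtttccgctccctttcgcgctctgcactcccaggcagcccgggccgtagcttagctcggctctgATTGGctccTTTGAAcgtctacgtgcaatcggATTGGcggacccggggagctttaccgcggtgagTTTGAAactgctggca
Ccnb2 (chr8:79981659-79981818, minus strand): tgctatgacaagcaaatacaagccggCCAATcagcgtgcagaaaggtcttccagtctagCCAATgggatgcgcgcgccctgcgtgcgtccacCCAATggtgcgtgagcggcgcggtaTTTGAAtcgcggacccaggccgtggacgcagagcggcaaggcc
Mki67 (chr1:199952594-199952753, minus strand): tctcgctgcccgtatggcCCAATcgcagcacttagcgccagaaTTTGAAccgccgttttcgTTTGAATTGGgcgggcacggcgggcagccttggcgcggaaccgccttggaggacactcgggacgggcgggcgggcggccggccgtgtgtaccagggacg
Top2a (chr10:84473094-84473253, minus strand): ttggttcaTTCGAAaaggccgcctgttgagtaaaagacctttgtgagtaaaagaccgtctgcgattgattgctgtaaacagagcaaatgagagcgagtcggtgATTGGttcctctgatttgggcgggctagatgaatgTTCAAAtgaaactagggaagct
Cdc20 (chr5:137255800-137255959, minus strand): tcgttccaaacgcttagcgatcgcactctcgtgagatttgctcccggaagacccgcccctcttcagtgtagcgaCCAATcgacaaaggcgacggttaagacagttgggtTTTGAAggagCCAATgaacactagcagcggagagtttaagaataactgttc
Spc25 (chr3:74396719-74396878, minus strand): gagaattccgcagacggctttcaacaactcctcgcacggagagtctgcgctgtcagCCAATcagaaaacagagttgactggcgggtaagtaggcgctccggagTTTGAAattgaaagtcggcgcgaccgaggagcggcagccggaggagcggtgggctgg
All 6 windows held both kinds of letters, but the 6 genes were chosen and do not stand for the 37. They belong to the 22 with a CHR and CCAAT, and none of the 10 without a CHR is printed. In Cdk1 a CHR lay within a few bases after an inverted CCAAT box, and in Mki67 a CHR and an inverted CCAAT box overlapped by 1 base.

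Searched on both strands, TTTGAA was in 27 of the 37 promoters (73.0%), against 18.1% of the 27457 promoters in the table and 13.2% of the 14085 whose genes are in the deposited table. CCAAT was likewise in 27 of the 37 (73.0%), against 37.7% and 37.6%. CCAAT occurred at least 2 times in 54.1% of the 37, against 11.5% of all promoters. A CHR of either spelling together with CCAAT was in 22 (59.5%), against 7.83% of all promoters. Of the 27 promoters, 18 had a TTTGAA wholly before the annotated start. In 8, those of Plk1, Mad2l1, Ttk, Ndc80, Nuf2, Cenpf, Nusap1 and Fbxo5, every match began after the start, and in Bub1b it spanned the start. On the strand of the gene were 25 of the 32 matches.

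The changes of genes with and without these letters overlapped. The 27 genes with a CHR had a median log2 fold change of 1.43 in pMx versus sham, with a range from 0.68 to 1.81, and the 10 without had a median of 1.54, with a range from 0.98 to 1.80. In sham versus intact the medians stood the other way round, at 1.19 with a CHR and 0.94 without. The genes without a CHR in this window were Mybl2, Ccnb1, Aurka, Melk, Bub1, Spc24, Cenpe, Kif11, Kif2c and Kif20a. The E2F site of S phase genes, spelled TTTGGCGC or TTTCGCGC, was in 1 of the 37 promoters (2.70%), that of Cdk1, and in 0.841% of all promoters. Among genes of DNA replication it was in 15 of 33 (45.5%), while TTTGAA was in 3 of 33 (9.09%). A match of letters is a description and does not show that a factor binds there.

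Mki67, Mybl2, Foxm1 and Lmnb1 are markers and regulators of dividing cells, and all 4 rose in both steps. Mki67, which encodes the Ki-67 antigen that coats mitotic chromosomes, stood at 1.68, 2.41 and 1.89 TPM in the intact libraries, 6.44, 9.09 and 4.36 TPM in the sham libraries and 24.45, 23.13 and 22.58 TPM in the pMx libraries. The 3 groups lay apart, and the pMx libraries differed little among themselves. Its log2 fold change was 1.72 (SE 0.21, adjusted p = 0.000395) in pMx versus sham and 1.31 (SE 0.21, adjusted p = 0.00884) in sham versus intact.

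Mybl2, which encodes the B-Myb transcription factor of late cell cycle genes, was the lowest of the 44 in the intact group, at 0.36, 0.55 and 0.34 TPM. It stood at 1.74, 2.12 and 1.33 TPM in the sham group and at 8.69, 8.37 and 8.20 TPM in the pMx group. It had the largest ratio of pMx to sham means of all 44 genes, 4.87, and a log2 fold change of 1.80 (SE 0.12, adjusted p = 3.06e-05). Foxm1, whose product works with B-Myb at the same promoters, changed less in the first step. Its intact libraries were at 1.99, 2.25 and 2.28 TPM, its sham libraries at 3.46, 3.98 and 2.65 TPM and its pMx libraries at 9.47, 8.75 and 8.77 TPM. Foxm1 rose by 1.21 (SE 0.12, adjusted p = 0.00018) on the log2 scale in pMx versus sham and by 0.45 (SE 0.12, adjusted p = 0.0493) in sham versus intact. The second of these calls was lost in 8 of the 9 fits that left out 1 library. Lmnb1, which encodes lamin B1 of the nuclear lamina, rose by 1.27 and 0.72 in the same order, to a pMx range of 20.32 to 21.50 TPM.

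The mitotic cyclins and Cdk1 had the largest ratios of the 10 role groups in both steps, with a summed level 3.73 times higher in sham than in intact and 3.41 times higher in pMx than in sham. Their share of the summed level of the 44 genes went from 10.4% in the intact to 15.1% in the sham and 17.1% in the pMx group. Cdk1, the kinase that drives entry into mitosis, had the highest level of the 44 in the sham and pMx groups. It stood at 5.03, 6.24 and 5.06 TPM in the intact libraries, 20.32, 23.84 and 15.52 TPM in the sham libraries and 73.19, 67.08 and 72.68 TPM in the pMx libraries. The groups lay far apart, with a log2 fold change of 1.80 (SE 0.14, adjusted p = 6.31e-05) in pMx versus sham and 1.68 (SE 0.14, adjusted p = 0.00129) in sham versus intact.

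Ccna2, which encodes cyclin A2 of S phase and early mitosis, was at 2.02, 1.77 and 1.88 TPM in the intact, 7.02, 10.97 and 5.70 TPM in the sham and 31.94, 26.30 and 29.56 TPM in the pMx libraries. The B-type cyclins Ccnb1 and Ccnb2, which activate CDK1 in mitosis, rose in both steps. Ccnb2 went from 2.29, 2.92 and 2.34 TPM in the intact to 10.44, 13.90 and 8.72 TPM in the sham libraries (log2 fold change 1.76, SE 0.16, adjusted p = 0.00152). Ccnb1 went from 1.84, 1.61 and 1.71 TPM to 4.04, 6.44 and 2.59 TPM (log2 fold change 0.91, SE 0.23, adjusted p = 0.0356), a call that was lost in 8 of the 9 fits without 1 library. In the second step the log2 fold changes were 1.51 for Ccnb2 and 1.55 for Ccnb1. The pMx libraries were at 35.93, 30.30 and 32.36 TPM for Ccnb2 and at 14.98, 12.89 and 14.37 TPM for Ccnb1.

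**Figure D2:**
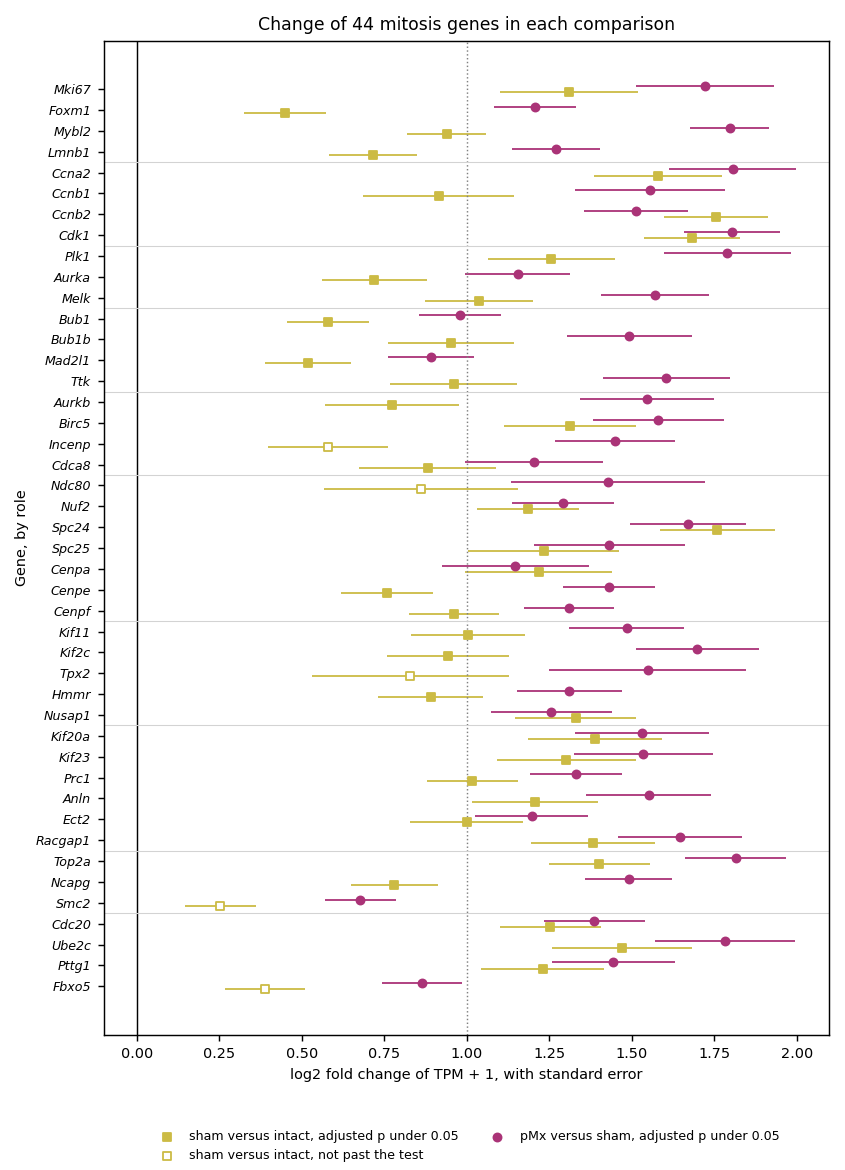
The log2 fold change of TPM + 1 with its standard error for each of the 44 genes (rows, ordered by role) for pMx versus sham and sham versus intact. All 44 genes lie to the right of 0 in both comparisons, filled points mark an adjusted p below 0.05, and the dotted line marks a log2 fold change of 1.

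Of the mitotic kinases, Plk1, which acts at centrosomes, kinetochores and the cleavage plane, was at 1.06, 1.57 and 0.83 TPM in the intact, 4.0, 5.59 and 3.01 TPM in the sham and 17.11, 15.65 and 17.12 TPM in the pMx libraries. The Plk1 log2 fold change was 1.79 (SE 0.19, adjusted p = 0.000215) in pMx versus sham and 1.26 (SE 0.19, adjusted p = 0.00752) in sham versus intact. Aurka, the Aurora kinase of the spindle poles, changed less, by 1.15 (SE 0.16, adjusted p = 0.00072) and 0.72 (SE 0.16, adjusted p = 0.0243). The second call for Aurka was lost in 4 of the 9 fits without 1 library. Its libraries were at 1.95, 2.03 and 2.55 TPM in the intact, 5.34, 4.28 and 3.24 TPM in the sham and 11.54, 9.53 and 10.86 TPM in the pMx group. Aurka was one of the 2 genes whose highest sham library was replicate 1. Melk, a kinase with high expression in dividing cells, was below 1 TPM in every intact library and at 7.37 to 9.31 TPM in the pMx libraries, a log2 fold change of 1.57 from sham (adjusted p = 0.000191).

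The spindle checkpoint genes had the smallest ratio of the role groups in pMx versus sham, with a summed level 2.49 times higher. Bub1 and Mad2l1, which encode a kinetochore kinase and the Mad2 inhibitor of the anaphase-promoting complex, rose in pMx versus sham without reaching a log2 fold change of 1. Mad2l1 was at 2.92, 4.24 and 3.12 TPM in the intact, 5.18, 5.69 and 5.03 TPM in the sham and 11.78, 10.56 and 9.76 TPM in the pMx libraries. Bub1 was at 5.19, 4.70 and 4.69 TPM, 8.54, 8.62 and 6.31 TPM, and 17.55, 15.07 and 16.25 TPM in the same order. Both genes started from intact levels above the median of the 44, which was 2.01 TPM, and their log2 fold changes in pMx versus sham were 0.98 (SE 0.12, adjusted p = 0.000478) for Bub1 and 0.89 (SE 0.13, adjusted p = 0.00100) for Mad2l1. The other checkpoint genes, Bub1b and Ttk, which encode BubR1 and the kinase Mps1, were below 1 TPM in every intact library and rose by 1.49 and 1.60 in pMx versus sham. In sham versus intact all 4 checkpoint genes rose, by 0.52 to 0.96, and none passed the DEG thresholds. Of these calls, that of Mad2l1 was lost in 8 of the 9 fits without 1 library and that of Bub1 in 3.

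The chromosomal passenger complex corrects faulty attachments and then moves to the midzone. All 4 of its genes rose in pMx versus sham, by 1.20 for Cdca8 (borealin) to 1.58 for Birc5 (survivin). Aurkb, its kinase, was at 2.56, 3.96 and 2.81 TPM in the intact, 5.24, 8.53 and 4.66 TPM in the sham and 20.07, 18.17 and 19.80 TPM in the pMx libraries. In sham versus intact Aurkb rose by 0.77 (SE 0.20, adjusted p = 0.0425), which was lost in 7 of the 9 fits that left out 1 library. Cdca8 rose there by 0.88 (adjusted p = 0.0302), which was lost in 5 of those fits. Incenp, the scaffold, did not pass the test in sham versus intact, with a log2 fold change of 0.58 (SE 0.18, adjusted p = 0.0725). Its intact libraries, at 3.19, 4.17 and 3.38 TPM, overlapped the sham libraries, at 6.34, 7.50 and 4.07 TPM. In the pMx libraries it was at 18.38, 17.50 and 17.01 TPM, with a log2 fold change of 1.45 (SE 0.18, adjusted p = 0.000464) from sham.

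Kinetochore and centromere genes numbered 7, and all of them passed the DEG thresholds in pMx versus sham. Ndc80, Nuf2, Spc24 and Spc25 encode the 4 subunits of the NDC80 complex, which grips the microtubule end. Although their products form 1 complex, their levels were not equal. In the pMx libraries Spc24 was at 28.75, 24.62 and 29.87 TPM, Nuf2 at 15.81, 13.06 and 18.18 TPM, Ndc80 at 11.99, 11.05 and 14.18 TPM and Spc25 at 10.25, 9.59 and 15.28 TPM. All 4 were highest in pMx replicate 3, which was the highest pMx library in 14 of the 44 genes (31.8%, against 28.5% of all genes).

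Spc24 also had the largest rise of the 44 from intact to sham. It went from 1.31, 1.44 and 2.33 TPM to 7.65, 9.85 and 6.77 TPM, a log2 fold change of 1.76 (SE 0.17, adjusted p = 0.00239). Ndc80 had intact libraries spread from 0.80 to 2.80 TPM, overlapping its sham libraries at 2.65 to 5.54 TPM, and its log2 fold change of 0.86 (SE 0.29, adjusted p = 0.0919) did not pass the test. Cenpa, the histone variant that marks the centromere, was at 1.37, 0.75 and 0.82 TPM in the intact, 3.77, 4.98 and 2.33 TPM in the sham and 9.97, 7.61 and 9.93 TPM in the pMx libraries. It rose in both steps, by 1.22 (SE 0.22) and then by 1.15 (SE 0.22). Cenpe, a kinesin of the kinetochore, and Cenpf, a large protein of the outer kinetochore, rose by 1.43 and 1.31 in pMx versus sham and by 0.76 and 0.96 in sham versus intact.

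Spindle motors and assembly factors rose together in pMx versus sham, by 1.26 for Nusap1 to 1.70 for Kif2c. Kif11, the motor that pushes the spindle poles apart, was at 1.01, 1.34 and 0.94 TPM in the intact, 3.25, 4.28 and 2.28 TPM in the sham and 11.54, 9.66 and 11.07 TPM in the pMx libraries. Kif2c, which takes microtubules apart at the centromere, was at 0.89, 1.15 and 0.81 TPM, 2.81, 3.87 and 1.82 TPM, and 12.14, 10.42 and 10.92 TPM in the same order. Tpx2, which activates Aurora A on the spindle, was at 2.85, 4.05 and 6.88 TPM in the intact, 9.36, 11.62 and 5.57 TPM in the sham and 30.48, 23.63 and 26.74 TPM in the pMx libraries. Its intact replicate 3 lay above its sham replicate 3, so these groups overlapped. Its log2 fold change was 0.83 (SE 0.30, adjusted p = 0.107) in sham versus intact and 1.55 (SE 0.30, adjusted p = 0.00411) in pMx versus sham. Intact replicate 3 also carried most of the skeletal muscle signal described below, and the part of that in the Tpx2 value was not tested. Hmmr, a microtubule-binding protein of the spindle poles, was at 1.58 to 2.47 TPM in the intact, 3.79 to 5.74 TPM in the sham and 11.61 to 13.99 TPM in the pMx libraries, and Nusap1, which bundles spindle microtubules, at 1.96 to 3.29, 6.71 to 10.47 and 18.66 to 21.15 TPM. Neither gene had overlapping groups.

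Genes of the central spindle and cytokinesis all rose in both comparisons, and their adjusted p in sham versus intact was at most 0.0110. Prc1, which bundles the midzone microtubules, was the highest of them, at 7.0, 7.36 and 6.82 TPM in the intact, 15.23, 19.30 and 12.17 TPM in the sham and 41.81, 39.23 and 39.19 TPM in the pMx libraries. Kif23 and Racgap1 encode the subunits of centralspindlin, which recruits Ect2, which triggers the contractile ring. Racgap1 went from 2.06, 1.71 and 2.55 TPM to 7.02, 9.54 and 5.18 TPM and then to 24.03, 23.05 and 25.63 TPM. Kif23 rose by 1.30 and 1.53, Racgap1 by 1.38 and 1.65 and Ect2 by 1.00 and 1.20 in sham versus intact and pMx versus sham. Anln, which encodes the ring scaffold anillin, rose by 1.21 and 1.55, and Kif20a, a midzone kinesin, by 1.39 and 1.53.

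Of the chromosome structure genes, Top2a and Smc2 marked the extremes of the 44. Top2a, the topoisomerase that untangles sister chromatids, was at 2.25, 1.99 and 1.99 TPM in the intact, 7.17, 9.12 and 5.48 TPM in the sham and 29.23, 25.55 and 28.07 TPM in the pMx libraries. The Top2a log2 fold change of 1.81 (SE 0.15, adjusted p = 7.63e-05) was the largest in pMx versus sham. Smc2, the core subunit of both condensin complexes, was at 7.76, 8.63 and 7.58 TPM in the intact, 10.53, 10.25 and 8.44 TPM in the sham and 16.54, 14.62 and 17.29 TPM in the pMx libraries. It had the highest intact level of the 44 and the smallest change, 0.68 (SE 0.11, adjusted p = 0.0015) in pMx versus sham and 0.25 (SE 0.11, adjusted p = 0.162) in sham versus intact. Ncapg, a subunit of condensin I alone, was lowest of the 44 in the pMx group, at 6.57, 5.66 and 6.51 TPM, yet rose by 1.49 (SE 0.13, adjusted p = 9.71e-05) from sham.

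The anaphase-promoting complex (APC/C) ends mitosis by marking cyclin B and securin for destruction. Ube2c, the ubiquitin-conjugating enzyme that serves it, was the second highest of the 44 in the pMx group, at 64.04, 54.10 and 69.16 TPM, against 17.92, 22.42 and 12.90 TPM in the sham libraries and 6.18, 6.75 and 4.21 TPM in the intact libraries. Cdc20, its activator, was at 3.91, 4.0 and 3.89 TPM in the intact, 12.33, 12.58 and 7.99 TPM in the sham and 31.49, 30.32 and 27.61 TPM in the pMx libraries. Both rose in both steps, and so did Pttg1 (securin), by 1.23 and then 1.44. Fbxo5, which encodes the inhibitor Emi1, was at 2.98, 3.95 and 3.12 TPM in the intact, 4.75, 5.07 and 4.22 TPM in the sham and 10.34, 8.52 and 9.20 TPM in the pMx libraries. Its rise of 0.87 (SE 0.12, adjusted p = 0.000804) in pMx versus sham fell short of the DEG thresholds, and its 0.39 (SE 0.12, adjusted p = 0.0712) in sham versus intact did not pass the test.

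**Figure D3:**
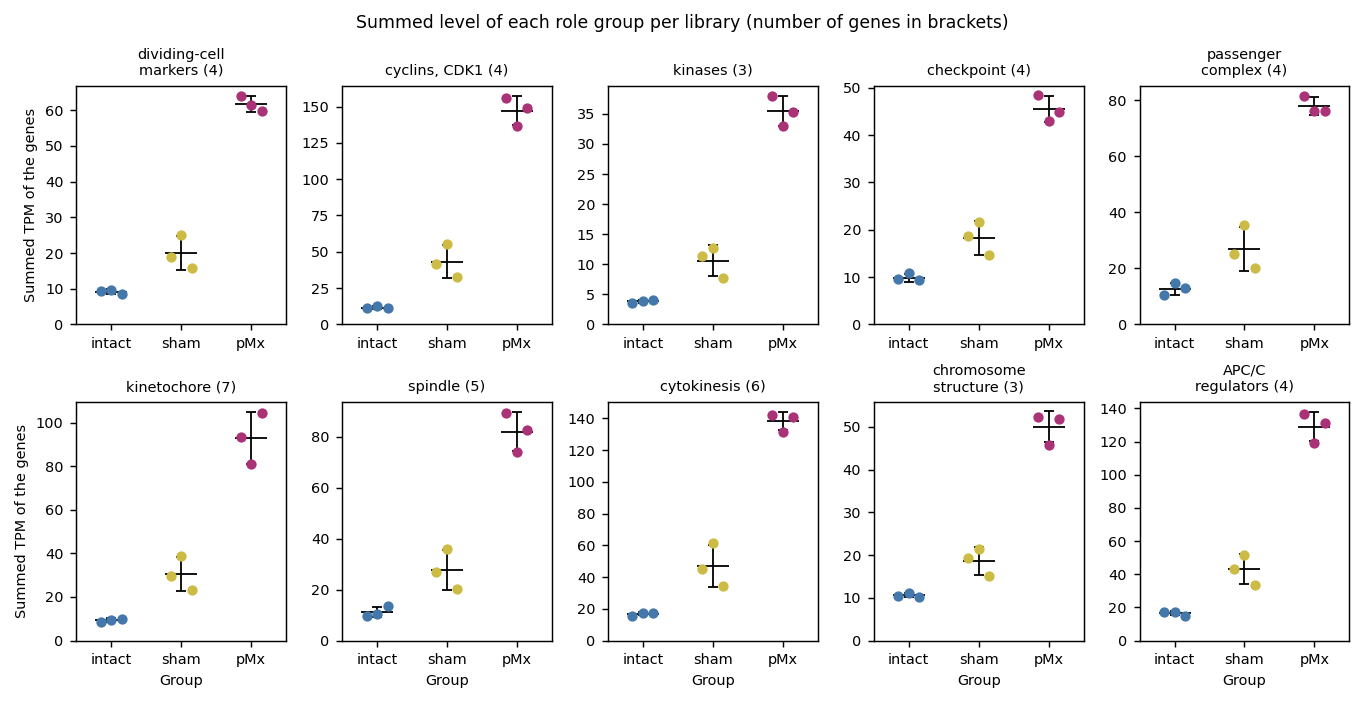
Summed TPM of the genes of each role group in each library (points) with the group mean (bar) and SD, for the intact, sham and pMx groups; each panel is 1 role group and starts at 0. In every panel the 3 pMx points lie above all sham points, and the cyclins and Cdk1 reach a mean of 147 ± 9.86 TPM (SD, n = 3) in the pMx group from 43.2 ± 11.4 TPM in the sham group.

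The order of levels changed between the groups. In the pMx group the highest mean levels were those of Cdk1, at 71.0 TPM, and then Ube2c, Prc1, Ccnb2 and Cdc20, which with Cdk1 made up 27.5% of the summed level. The same 5 genes led in the sham group. In the intact group the 5 highest were Smc2, Prc1, Ube2c, Cdk1 and Bub1, so that Smc2 and Bub1 were replaced by Ccnb2 and Cdc20 in the operated knees. The median of the 44 group means was 2.01 TPM in the intact, 5.89 TPM in the sham and 16.5 TPM in the pMx group. In the intact group 31 of the 44 genes were above 1 TPM in every library and 6 were below 1 TPM in every library, where the added 1 TPM of the log2 scale understates a change.

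The sham step and the pMx step were compared within the same fit, as the difference between the log2 fold change from intact to sham and that from sham to pMx. The difference passed the test in 1 of the 44 genes, Mybl2, where the pMx step was larger by 0.86 (SE 0.21, adjusted p = 0.0464), and 2.11% of all genes passed in that direction. This call, for a gene below 1 TPM in the intact group, was not made with a pseudocount of 0.1. The difference was then 0.42 (adjusted p = 0.565). The call was also lost with a minimum mean of 1 TPM and with no filter. Among fits without 1 library, it was lost without intact replicate 1 or 2, sham replicate 1 or 3, or any 1 of the pMx replicates. The median difference over the 44 genes was 0.41, and 40 of them had the larger step from sham to pMx, but with a pseudocount of 0.1 these were 0.24 and 34. These values also rested on single sham libraries, with a median of 0.12 and 27 genes without sham replicate 3 and a median of 0.69 and 44 genes without sham replicate 2. As ratios of mean TPM, which have no pseudocount, the median step was 3.04-fold from intact to sham and 3.08-fold from sham to pMx. Genes differed in which ratio was larger. Spc24 rose 4.78-fold and then 3.43-fold, while Incenp rose 2.95-fold from sham to pMx with a ratio of 1.67 from intact to sham.

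The sham libraries varied together in these genes. Sham replicate 2 was the highest sham library in 42 of the 44 genes (95.5%, against 38.5% of all genes), and sham replicate 3 the lowest in 41 (93.2%, against 46.5%). The order of replicate 2 above 1 above 3 was found in 39 of the 44, against 24.3% of all genes. The median coefficient of variation of the 44 genes was 27.6% in the sham group, 18.8% in the intact group and 7.78% in the pMx group. The summed level of 10 skeletal muscle genes followed the same order, at 1584, 3413 and 314 TPM in sham replicates 1, 2 and 3, and so did the first principal component of all genes, which placed sham replicate 2 nearest to the pMx libraries and replicate 3 nearest to the intact ones. Summed macrophage genes were at 8035, 7846 and 7315 TPM in the same libraries. The part of any of these in the spread of the mitosis genes was not tested. In the pMx group, replicate 1 was the highest library in 30 genes (68.2%, against 36.7% of all genes). Replicate 2 was the lowest pMx library in 33 (75.0%, against 29.5%).

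Genes of mitosis outside the 44 were taken as a second list of 80, of which 79 were tested. In pMx versus sham 68 of the 79 rose, against 17.7% of all genes, and 1 fell, against 18.9%. In sham versus intact 44 rose, against 6.73%, and 1 fell, against 5.97%. The median log2 fold changes of the 79 were 1.15 and 0.60. Those that rose most in pMx versus sham were Gtse1 (1.67), a microtubule-binding protein of G2, Cenpt (1.62), a centromere protein that holds the NDC80 complex, and Pimreg (1.59). The gene that fell in both comparisons was Zwint, a protein of the outer kinetochore. Zwint was at 69.63, 76.92 and 64.04 TPM in the intact, 44.91, 40.39 and 38.93 TPM in the sham and 33.45, 34.54 and 28.66 TPM in the pMx libraries. It was thus above all 44 mitosis genes in the intact group, where Smc2 was the highest of the 44 at 7.99 TPM. Its log2 fold change was -0.35 (SE 0.10, adjusted p = 0.0202) in pMx versus sham, which was lost without pMx replicate 3 or without sham replicate 1, and -0.75 in sham versus intact. Zwint is also known to be expressed in neurons, and the summed level of 6 Schwann cell genes, which mark nerve, was 264 to 474 TPM in the intact, 321 to 400 TPM in the sham and 79.1 to 96.0 TPM in the pMx libraries. The part of nerve in the Zwint level was not tested.

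The core subunits of the APC/C and the cohesin complex are known to be present through the whole cell cycle. Of 15 APC/C genes, core subunits and an activator, 7 rose and 1 fell in pMx versus sham, where 17.7% of all genes rose and 18.9% fell. In 11 of the 15 the pMx libraries were higher without overlap, against 27.0% of all genes. Their median log2 fold change was 0.23, beside -0.01 over all genes. In sham versus intact 1 of the 15 rose, where 6.73% of all genes rose, and the median was -0.01. The largest increase was that of Cdc16, from 44.40, 48.68 and 39.45 TPM in the sham to 79.41, 77.47 and 78.14 TPM in the pMx libraries, a log2 fold change of 0.82 (adjusted p = 0.000145). Anapc15 and Anapc1 followed with 0.45 and 0.44, and Cdc26 fell by 0.28 on the log2 scale, a call that did not hold in most fits without 1 library. Of 12 cohesin genes, 1 rose and 3 fell in pMx versus sham, where 17.7% of all genes rose and 18.9% fell. Their median was -0.08. The gene that rose was Esco2, the acetyltransferase of S phase that locks cohesin on DNA, from 2.25, 2.68 and 1.71 TPM in the sham to 5.21, 4.64 and 5.46 TPM in the pMx libraries (log2 fold change 0.93). Those that fell were Stag2 (-0.38), Smc3 (-0.27) and Esco1 (-0.24).

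Of 41 genes of DNA replication, which act before mitosis, 36 rose in pMx versus sham, against 17.7% of all genes. In sham versus intact 16 rose, against 6.73% of all genes. The median log2 fold changes of the 41 were 0.79 and 0.41. In both comparisons 0 of the 41 fell, against 18.9% and 5.97% of all genes. At an unadjusted p below 0.05, 0 were lower in the first and 1 in the second, against 23.5% and 15.0%. Those that rose most from sham to pMx were Rrm2 (1.96), a subunit of ribonucleotide reductase, Tk1 (1.93), thymidine kinase, and Uhrf1 (1.86), which maintains DNA methylation. Whether the lists differed from each other was not tested.

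**Figure D4:**
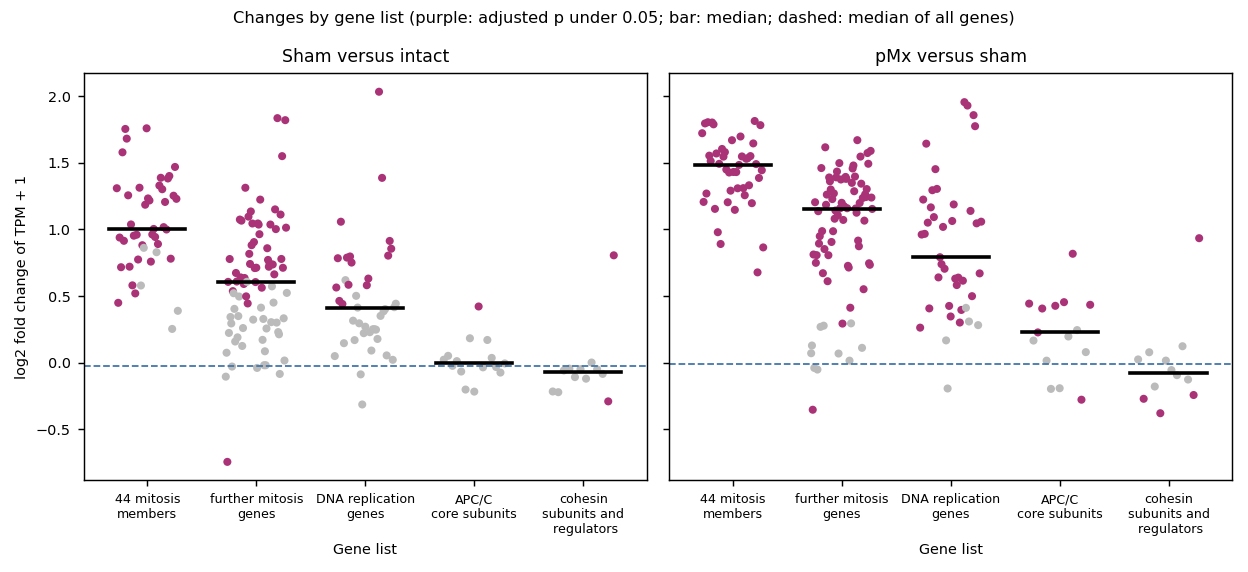
The log2 fold change of TPM + 1 of every gene (points) in the 44 mitosis genes and 4 further lists, for pMx versus sham and sham versus intact; purple points passed an adjusted p of 0.05, bars are list medians and the dashed line is the median of all genes. The 44 genes lie between 0.68 and 1.81 in pMx versus sham with a median of 1.49, while the medians of the APC/C core and cohesin lists are 0.23 and -0.08.

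The libraries held 15644 to 16125 genes above 0 TPM, and TPM keeps no record of read numbers, so that depth is unknown. Libraries of 1 group correlated at 0.954 to 0.996, and none were identical. Intact replicate 3 stood apart, with 49674 TPM of 10 skeletal muscle genes, against 77.2 TPM in the lowest intact library, 314 to 3413 TPM in the sham and 101 to 3451 TPM in the pMx libraries. Without this library 44 of the 44 genes still rose in pMx versus intact. All 10 adipocyte genes fell in pMx versus sham, where 18.9% of all genes fell. Their sums were 5269 to 5763 TPM in the sham, 357 to 535 TPM in the pMx and 3586 to 7924 TPM in the intact libraries. Erythroid genes were at 8801 to 17089 TPM in the intact, 4480.2 to 6593 TPM in the sham and 357 to 435 TPM in the pMx libraries.

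Markers of immune cells and vessels were summed in the same way. Macrophage genes, 9 of 10 listed being in the table, summed to 2851 to 4833 TPM in the intact, 7315 to 8035 TPM in the sham and 7992 to 8369 TPM in the pMx libraries. In pMx versus sham 1 of these 9 rose and 3 fell, where 17.7% of all genes rose and 18.9% fell. In sham versus intact 4 of the 9 rose, where 6.73% of all genes rose. T cell genes were at 135 to 219, 236 to 254 and 166 to 209 TPM, B cell genes at 16.5 to 32.9, 24.5 to 25.0 and 17.0 to 24.6 TPM, and granulocyte genes at 68.4 to 201, 42.5 to 51.9 and 10.01 to 26.3 TPM in the intact, sham and pMx groups, with Elane at 0 in every pMx library. Endothelial genes were at 1127 to 1481, 941 to 1015 and 751 to 953 TPM in the same order. Of the 9 T cell genes listed, 8 were in the table. In pMx versus sham 1 of these 8 rose and 1 fell, where 17.7% of all genes rose and 18.9% fell. Of 6 B cell, 8 granulocyte and 10 endothelial genes, 4, 1 and 4 fell there and 0 rose. In sham versus intact 5 T cell genes and 1 B cell gene rose, where 6.73% of all genes rose. Those that fell were 1 B cell, 4 granulocyte and 4 endothelial genes, where 5.97% of all genes fell.

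The labelled tissues were checked against synovial fibroblast and fibrocartilage genes. Synovial fibroblast genes summed to 10406 to 14079.9, 15357 to 16783 and 32701 to 36573 TPM in the intact, sham and pMx libraries. Of the 9, 3 rose and 3 fell in pMx versus sham, where 17.7% of all genes rose and 18.9% fell. A large part of the sum is the type I collagen gene Col1a1, with group means of 1516, 4501 and 15669 TPM in the same order. The sum is therefore not a measure of synovial fibroblasts alone. Prg4, the lubricin of the synovial lining, was at 2851.58, 2986.46 and 2099.95 TPM in the intact, 1450.96, 1244.64 and 1248.09 TPM in the sham and 1737.63, 1537.09 and 1084.36 TPM in the pMx libraries, and did not pass the test in pMx versus sham (log2 fold change 0.12, adjusted p = 0.680). Other genes of this list moved in opposite directions. Clic5, another gene of the lining, fell from 308.02, 156.90 and 253.14 TPM in the sham to 17.25, 13.08 and 8.86 TPM in the pMx libraries, a log2 fold change of -4.09 (adjusted p = 3.06e-05). Thy1, a marker of fibroblasts below the lining, rose from 327.01, 401.83 and 249.98 TPM to 1071.95, 965.51 and 1074.34 TPM, a log2 fold change of 1.69 (adjusted p = 0.000231). Fibrocartilage genes were at 477 to 1059, 781 to 864 and 1648.5 to 1872 TPM in the intact, sham and pMx groups. Of the 8, 4 rose and 1 fell in pMx versus sham, beside the same shares of all genes. Acan rose from a mean of 21.9 to 207.8 TPM (adjusted p = 0.00136) and Sox9 from 0.95 to 5.18 TPM (adjusted p = 7.92e-05). Col2a1, the collagen of hyaline cartilage, did not pass the test (adjusted p = 0.971). It was at 0.24 to 16.14 TPM in the intact, 0.14 to 2.26 TPM in the sham and at most 0.89 TPM in the pMx libraries. The part of these tissue differences in the levels of the mitosis genes was not tested.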

How the data were processed

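RNA from 9 libraries was sequenced at BGI after capture of mRNA with oligo-dT beads and dUTP second-strand synthesis. The authors deposited 1 table of TPM values with 2 decimals for 17602 genes, computed by BGI and handled in its Dr. Tom system. HISAT2 2.0.4 and the build mRatBN7.2 are named in the submitters' processing notes. The counting tool, the annotation and any filter are not given in the sources used here. TPM is scaled to 1000000 per library, so a rise in some genes lowers the others, and the depth is unknown because read numbers are not kept. Precision is therefore the spread between 3 libraries. There were 0 columns of other samples.

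Groups and replicate numbers came from the sample titles. The values were fitted as log2(TPM + 1) in limma 3.58.1 under R 4.3.3, with 1 mean per group over all 9 libraries, a mean-variance trend and Benjamini-Hochberg adjustment over the 16512 genes tested, each with 3 or more libraries above 0 TPM. The DEG thresholds are those of the study. On simulated data of 16512 genes for pMx versus sham, 91% of genes changed by 1 and 99% of those changed by 2 on the log2 scale were called, with 8 false calls. The 100 genes changed by each amount were drawn only from genes with a mean log2(TPM + 1) above 2. These rates thus do not describe genes of lower level.

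The 44 genes, the further lists and the marker lists were chosen with earlier results of these data known. All 44 were named in the text, and of each further list at most the 3 called genes that rose most and the 3 that fell most in pMx versus sham. The further lists were other mitosis genes, APC/C core subunits with an activator, cohesin and DNA replication, and Ncaph of the first was not analysed here. Of the 44 identifiers, 44 matched the RefSeq gene table of GRCr8, which was used for names, and promoters were read from the RefSeq promoter table of the same assembly. Figures were drawn with Matplotlib 3.10.9. As alternatives the pseudocount was set to 0.1 or 0.01, genes were kept at a mean of 1 TPM or more or without any filter, libraries were rescaled by median-of-ratios or quantiles, and a comparison was fitted on its own 6 libraries. Further ones were eBayes with no trend, robust eBayes, a replicate block, an adjusted p below 0.01 and leaving out each library.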

Additional observations from a re-analysis of the deposited data

How the results depend on the processing

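In pMx versus sham and in pMx versus intact, 44 of the 44 genes rose under every alternative run, with highest adjusted p values over all alternatives of 0.0230 and 0.00192. In sham versus intact, 39 genes rose, and the count was 21 at an adjusted p below 0.01, 28 when only the 6 libraries compared were fitted, and 26 to 39 when 1 library was left out, the lowest without sham replicate 1. In that comparison 18 genes lost their call under some alternative, 13 of them in a fit without 1 library. Incenp, Tpx2 and Fbxo5 gained a call under some alternative, and none of the 44 changed direction. The DEG count there was 22, and 33 with a pseudocount of 0.1 or 0.01. The count of genes whose 2 steps differed was 1 (Mybl2), and it was 0 with an adjusted p below 0.01, a pseudocount of 0.1 or 0.01, a minimum mean of 1 TPM or no filter, 2 with median-of-ratios scaling, 3 with quantile normalization, and 0 to 1 when 1 library was left out. The cause of these shifts was not tested.

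The labels give same-numbered libraries only a number, and whether they share an animal is not given in the sources used here. The correlation of their deviations from the group means was 0.03 to 0.48 for pMx and sham, -0.49 to 0.00 for sham and intact and -0.66 to -0.38 for pMx and intact. Correlating best with their own number were 5 of 6, 0 of 6 and 0 of 6 libraries. With the replicate number as a block, 44, 37 and 44 genes rose in pMx versus sham, sham versus intact and pMx versus intact, and 40, 22 and 43 passed the DEG thresholds. TPM keeps no read numbers, so how far counting error limits the lowest intact levels is unknown.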
